A study of Danio rerio with 2 samples.

Results

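The genes described here encode collagens, laminins and fibronectins, the main structural proteins of the extracellular matrix of the zebrafish embryo. They were taken by symbol, as every gene named col or lam followed by a chain number, plus fn1a and fn1b, and numbered 72 of the 25743 genes in the gene list. These were 55 collagen genes, 13 laminin genes, 2 fibronectin genes and 2 genes, col4a3bpa and col4a3bpb, that fit the naming rule but encode ceramide transfer proteins and not collagens. The study profiled GFP-positive cells sorted by FACS from etv2ci32Gt; UAS:GFP embryos at the 20-somite stage with 10x Genomics Chromium 3′ single-cell RNA-seq, in 1 homozygous library and 1 heterozygous library, each from pooled embryos. The etv2ci32Gt allele is a gal4 gene trap inserted in the coding sequence of etv2, which encodes an ETS transcription factor of vascular progenitors, and it switches on UAS:GFP in cells that use the etv2 locus. Homozygous embryos carried the trap on both copies and heterozygous embryos on a single copy, so no library was free of the trap and only cells with reporter activity entered either library.

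Collagens are built as triple helices of alpha chains. The fibrillar types I, II, V and XI form the fibres of mesenchyme, skin and cartilage, types IX, XII and XIV decorate these fibres, and types IV, XV and XVIII belong to basement membranes. Laminins are trimers of an alpha, a beta and a gamma chain and form the first sheet of a basement membrane, whereas fibronectin is laid down around migrating and assembling mesoderm, including the heart field and the somites, and is bound by integrins such as alpha 5 beta 1.

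After barcodes under 2500 UMIs, outside 201 to 3500 genes or over 5% mitochondrial counts were dropped, 473 homozygous and 1608 heterozygous cells were kept, with median depths of 13079 and 10037 UMIs and no shared barcode. With 1 library per genotype there was no replicate and no test of genotype. Values are counts per 1000000 (CPM) of the UMIs summed over the cells of a class, and their exact 95% intervals cover counting error only. A UMI marks a captured transcript end, so CPM are not divided by gene length. Clusters were computed without the 72 genes and named from markers, giving 10 classes, each called "-like" (RBC, red blood cell; LPM, lateral plate mesoderm; EPC, endothelial progenitor cell). The macrophage-like, EPC-like and endothelial-like classes held 8 homozygous and 827 heterozygous cells, and were not compared between genotypes. The library labels were checked on etv2 itself, at 15.1 CPM in homozygous and 290 CPM in heterozygous cells (ratio 0.0521, 0.0421 to 0.0639). The labels call the sorted cells endothelial, but the endothelial gene cdh5 had 8 UMIs in the homozygous library and 1211 in the heterozygous library.

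Expression of the matrix genes was concentrated in a few of them. A UMI was found for 55 of the 72 genes, 27 reached 30 UMIs, and 17 had none in a kept cell. Of 8447 UMIs in all, collagens held 53.4%, the 2 fibronectin genes 41.3% and laminins 4.69%. The 5 leading genes, fn1a (ENSDARG00000019815), fn1b (ENSDARG00000006526), col5a1 (ENSDARG00000012593), col18a1a (ENSDARG00000036558) and col1a2 (ENSDARG00000020007), took 61.0% of the UMIs and the 10 leading genes 80.3%. The sum over the 72 genes was 365 CPM in homozygous cells and 364 CPM in heterozygous cells, a ratio of 1.003 (0.956 to 1.05). Between classes the sum differed far more. In the heterozygous library it was 1216 CPM in epidermal-like, 729 CPM in LPM-like, 607 CPM in myocyte-like and 552 CPM in macrophage-like cells, against 153 CPM in RBC-like and 242 CPM in neural-like cells.

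**Figure D1:**
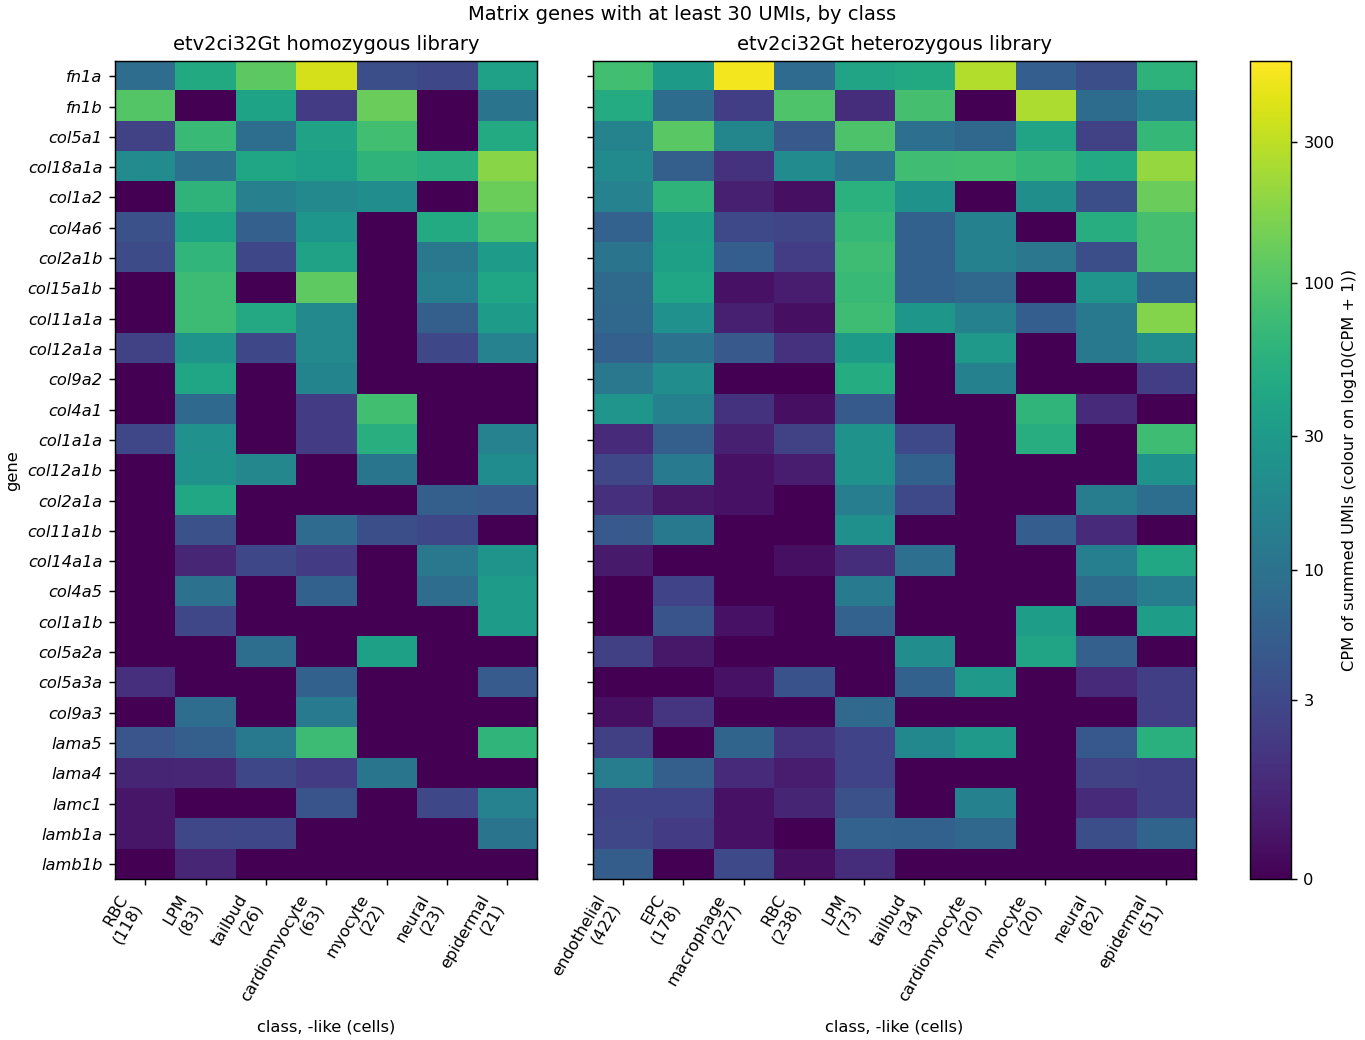
The 27 matrix genes with at least 30 UMIs (rows) in classes with at least 20 cells of the homozygous library (left) and of the heterozygous library (right). Colour gives CPM of summed UMIs on a log10(CPM + 1) scale and the number of cells stands under each class. The brightest field is fn1a in heterozygous macrophage-like cells (497 CPM), and fibrillar collagens fill the LPM-like column of both libraries.

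The fibronectin genes divided several classes between them. The gene fn1a was the one used in macrophage-like, cardiomyocyte-like and LPM-like cells, and fn1b in RBC-like and myocyte-like cells. In macrophage-like cells fn1a had 28 UMIs and fn1b none in the 2 homozygous cells, against 1327 and 6 UMIs in the 227 heterozygous cells. Cardiomyocyte-like cells had 179 UMIs of fn1a and 1 of fn1b in the homozygous library, and 36 and 0 in the heterozygous library. LPM-like cells had 48 and 0 in the homozygous library and 31 and 1 in the heterozygous library. So nearly all fibronectin UMIs of these classes came from fn1a in both libraries.

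The reverse held in RBC-like cells, where fn1a made up 7.69% of fibronectin UMIs in homozygous (18 of 234) and 7.74% in heterozygous cells (27 of 349). In myocyte-like cells a single fn1a UMI stood against 37 of fn1b in homozygous and 46 of fn1b in heterozygous cells. Cells with UMIs of both genes were few, 24 homozygous and 51 heterozygous cells, but the number expected at this depth was not computed. In homozygous RBC-like cells 12 of the 14 cells with fn1a also held fn1b, so the genes did not exclude each other there. Other classes had both genes, among them heterozygous EPC-like cells with 59 fn1a and 16 fn1b UMIs. The class levels of fn1a reached 369 CPM (317 to 427) in homozygous and 271 CPM (190 to 375) in heterozygous cardiomyocyte-like cells, next to 497 CPM (471 to 524) in heterozygous macrophage-like cells. The highest fn1b levels were in myocyte-like cells, at 132 CPM (93.0 to 182) in homozygous and 259 CPM (189 to 345) in heterozygous cells. RBC-like cells held a level that hardly differed between the libraries, 102 CPM (89.0 to 117) in homozygous and 97.8 CPM (87.4 to 109) in heterozygous cells.

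A fn1a UMI was found in 94.3% of heterozygous macrophage-like cells (median 11775 UMIs). The share was 3.66% in heterozygous neural-like cells (median 10129 UMIs), a class taken for comparison because it held only 3 fn1a UMIs. After thinning every cell to 5000 UMIs, these shares were 85.4% (79.9 to 90.0) and 1.43% (0.0362 to 7.70). Most macrophage-like cells thus held fn1a. The low share of the neural-like class follows from how that class was picked. Before thinning, a fn1a UMI was also found in 46 of 63 homozygous and 13 of 20 heterozygous cardiomyocyte-like cells. For fn1b the thinned shares were 31.0% in homozygous and 41.5% in heterozygous RBC-like cells, 36.8% and 64.7% in homozygous and heterozygous myocyte-like cells, and 1.43% in heterozygous neural-like cells.

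**Figure D2:**
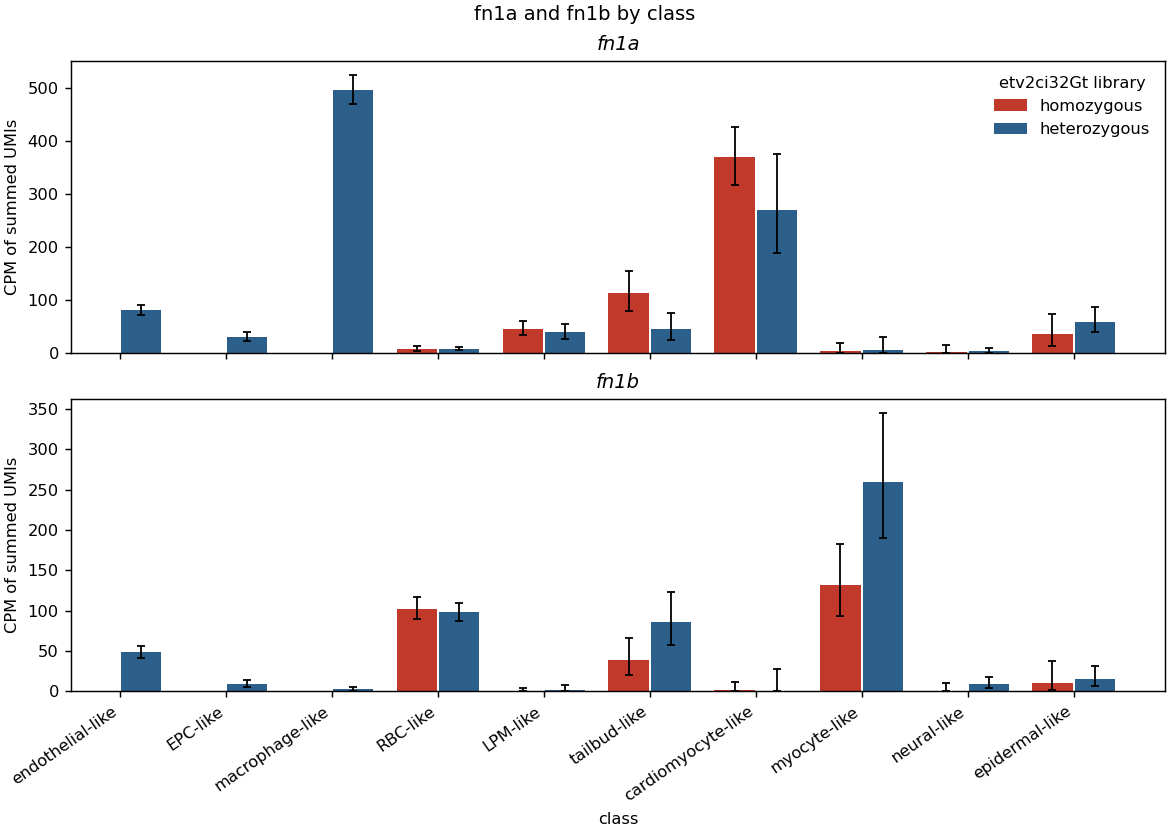
CPM of summed UMIs of fn1a (top) and fn1b (bottom) by class, with the homozygous library (red) left of the heterozygous library (blue) and exact 95% intervals for counting error. Classes with under 20 cells in a library have no bar there. Macrophage-like and cardiomyocyte-like cells are high in fn1a (497 CPM in heterozygous macrophage-like cells) with almost no fn1b, and myocyte-like and RBC-like cells the other way round.

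Endothelial-like cells of the heterozygous library (422 cells in clusters 5, 6 and 7) had 3 matrix genes at least 2-fold above all other cells among the 17 with 10 UMIs or more there. For comparison, 13.7% of all genes with 10 UMIs in the class were so enriched. All 3 encode basement membrane chains: col4a1, a chain of the network-forming collagen IV (26.3 CPM, 7.05-fold, 4.95 to 10.2), lama4, the laminin alpha chain typical of vessel walls (13.4 CPM, 7.21-fold, 4.35 to 12.2), and lamb1b, a laminin beta chain (5.43 CPM, 6.62-fold, 2.99 to 15.4). These levels were low in absolute terms, and col4a1 was seen in 14.5% of the cells. Not every basement membrane gene was higher there. The collagen IV chain gene col4a6 had 22 of its 262 heterozygous UMIs in this class, which was 26.2% of the cells of the library. The fibronectin genes were the most abundant matrix genes of the class, fn1a at 81.4 CPM and fn1b at 48.6 CPM, followed by col18a1a (19.1 CPM) and col5a1 (16.0 CPM).

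The fibronectin genes split along the endothelial-like clusters. Cluster 6, with dll4, flt1 and cldn5b among its leading genes, had 242 fn1a and 3 fn1b UMIs, and cluster 7, with mrc1a and dab2, had 25 and 132. The level of fn1a was 10.4-fold higher in cluster 6 than in cluster 7 (187 against 18.1 CPM, 6.84 to 16.3), and that of fn1b was 0.0243 of the cluster 7 level (2.32 against 95.6 CPM, 0.00495 to 0.0726). The basement membrane collagen col18a1a, from which endostatin is cut, followed fn1b, at 1.55 CPM in cluster 6 and 39.1 CPM in cluster 7, and col1a2, a fibrillar collagen I chain, stood at 3.87 and 19.6 CPM. The collagen IX chain gene col9a2 had 35 UMIs in cluster 6 and 0 in cluster 7. Its ratio was 12.5 when 3 counts are set for the zero, and the lower end of its interval was 9.62. By contrast col4a1 and lama4 were present in both, at 41.8 and 17.0 CPM in cluster 6 and 24.6 and 7.97 CPM in cluster 7. These cells came from 1 library, and cluster 5 was shallower (median 4619 UMIs) with 18 fn1a and 35 fn1b UMIs.

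Within cluster 6, the 74 cells with UMIs of 2 or more endocardial markers had fn1a at 290 CPM (252 to 333), and the other 68 cells at 67.1 CPM (48.0 to 91.4), at nearly equal median depth (8884 and 8792 UMIs). Of the collagen genes only col4a1, col9a2, col11a1b and col2a1b were compared, and none was higher in the 74 cells. For col4a1, col9a2 and col2a1b the intervals of the 74 and the 68 cells overlapped. The gene col11a1b, a collagen XI chain, had 0 UMIs in the 74 cells, where a count of 0 allows up to 5.30 CPM, and 18.5 CPM (9.21 to 33.0) in the other 68, and col4a1 had 31.6 and 53.7 CPM.

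**Figure D3:**
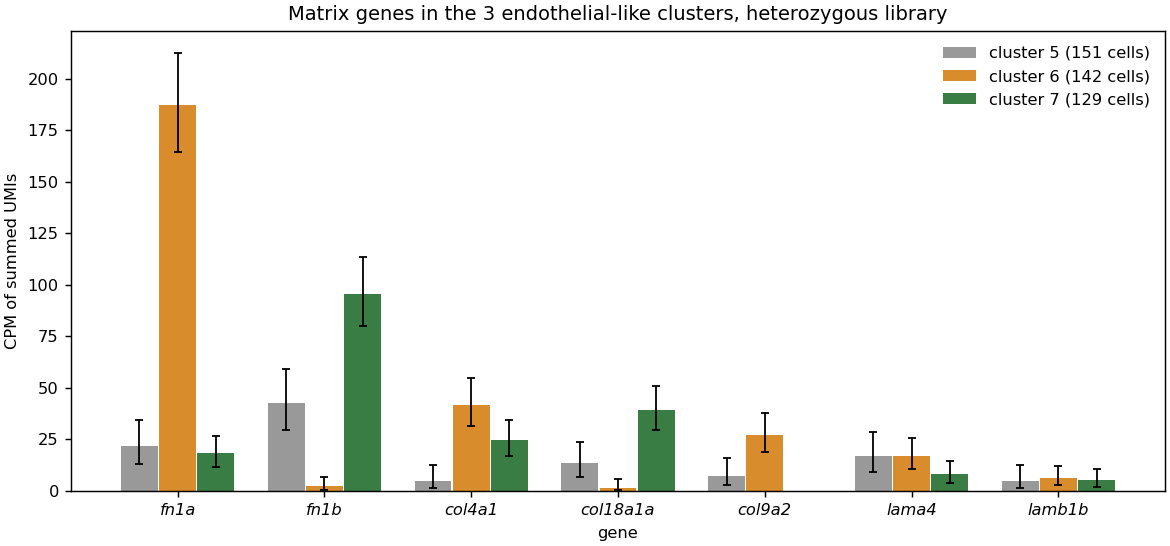
CPM of summed UMIs of 7 matrix genes in the 3 endothelial-like clusters of the heterozygous library (cluster 5, grey; cluster 6, orange; cluster 7, green), with exact 95% intervals for counting error. Cluster 6 is high in fn1a (187 CPM) and cluster 7 in fn1b (95.6 CPM) and col18a1a (39.1 CPM).

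EPC-like cells of the heterozygous library (178 cells) had enriched collagen genes of both the fibrillar and the basement membrane kind. Of the 16 matrix genes with 10 UMIs or more, 9 were enriched at least 2-fold (background 12.3% of genes). The fibrillar collagen V chain gene col5a1 led with 110.7 CPM (96.3 to 127), 6.49-fold above the other cells, and was found in 61.2% of the cells. It was followed by col1a2 (61.1 CPM, 4.22-fold), col15a1b, a basement membrane collagen (41.3 CPM, 5.16-fold), col2a1b, a collagen II gene (35.5 CPM), and col4a6, a collagen IV chain (33.4 CPM). The endothelial-enriched col4a1 was enriched here too (15.2 CPM, 2.01-fold, 1.29 to 3.05). Collagen IX and XI chains were also above the other cells, col9a2 at 3.78-fold and col11a1b at 4.62-fold. Fibronectin and collagen XVIII were below them, with fn1a at 0.257, fn1b at 0.145 and col18a1a at 0.223 of the level elsewhere. For fn1a the other cells included the macrophage-like class, which held 1327 of the 1860 fn1a UMIs of the library. A comparison without that class was not made, so a low fn1a level against the remaining classes was not shown.

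LPM-like cells held a broad set of enriched collagens, nearly the same in both libraries. Among matrix genes with 10 UMIs or more in the class, 12 of 14 were enriched at least 2-fold in the homozygous library (19.3% of all genes) and 13 of 14 in the heterozygous library (14.6%). All 12 of the homozygous set were in the heterozygous set, and col11a1b was added there. The fibrillar genes col5a1 (69.8 CPM in homozygous and 95.1 CPM in heterozygous cells), col11a1a (75.5 and 78.6 CPM), col2a1b (64.0 and 77.4 CPM) and col1a2 (60.2 and 55.8 CPM) and the basement membrane genes col15a1b (75.5 and 72.3 CPM) and col4a6 (38.2 and 67.2 CPM) led in both. The fibril-associated col9a2 had 40.1 CPM in homozygous and 49.5 CPM in heterozygous LPM-like cells, 19.1-fold and 9.17-fold above the other cells of its library. Against this, col18a1a was at 0.272 of the level elsewhere in homozygous and 0.421 in heterozygous cells, and fn1b was almost absent.

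Among classes with 20 or more cells in a library, epidermal-like cells had the highest summed matrix level. In the heterozygous library 14 of 15 matrix genes with 10 UMIs or more were enriched (20.0% of all genes), and in the homozygous library all 4 that reached 10 UMIs were (20.3% of all genes). With 193624 UMIs in the homozygous class, a collagen gene needed a high level to reach 10 UMIs, so that count follows in part from the minimum. The leading gene in both was col18a1a, at 181 CPM (126 to 251) in homozygous and 207 CPM (167 to 254) in heterozygous cells. It was followed by col1a2 at 134 and 130 CPM and col4a6 at 93.0 and 85.9 CPM. The laminin alpha 5 gene lama5, whose product anchors epidermal cells, had 62.0 CPM in homozygous and 55.1 CPM in heterozygous cells, 5.63-fold and 17.4-fold above the other cells. In heterozygous cells col11a1a (174 CPM), col2a1b (85.9 CPM) and col1a1a, a collagen I chain gene (77.1 CPM), were also high. Some rare genes had most of their UMIs in this class there. The anchoring fibril collagen col7a1 had 17 of its 18 heterozygous UMIs in it (37.5 CPM, 617-fold above 1 UMI elsewhere, 96.6 to 25770) and col28a2a had 11 of 15.

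Neural-like cells made little matrix, mostly of basement membrane type. Enriched genes were 1 of 2 in the homozygous library (17.0% of all genes) and 5 of 7 in the heterozygous library (17%). The gene col4a6 had 46.5 CPM in homozygous and 50.1 CPM in heterozygous cells, and col18a1a 52.3 and 46.6 CPM. In heterozygous neural-like cells col15a1b (26.3 CPM), the fibril-associated col14a1a (14.3 CPM) and col2a1a (13.1 CPM) were also enriched, with col2a1a in 11 cells at 1 UMI each.

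Myocyte-like cells of both libraries combined fn1b with collagen IV and XVIII. Of the matrix genes with 10 UMIs or more, all 6 were enriched in the homozygous library (13.7% of all genes) and all 3 in the heterozygous library (10.27%). The class was small (280202 UMIs in homozygous and 177829 in heterozygous cells), so a collagen gene needed a high level to reach 10 UMIs. These counts therefore follow in part from the minimum. After fn1b came col4a1, at 82.1 CPM (52.03 to 123) in homozygous and 61.9 CPM (30.9 to 111) in heterozygous cells, and col18a1a, at 60.7 and 67.5 CPM. Homozygous cells also had col5a1 (82.1 CPM), col1a1a (53.5 CPM) and col5a2a, a second collagen V chain gene (35.7 CPM), above the threshold. Collagen IV here was of the col4a1 kind, since col4a6 had no UMI in this class in either library.

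Cardiomyocyte-like cells had 4 of 7 genes enriched in the homozygous library (23.6% of all genes) and 2 of 2 in the heterozygous library (15.8%), with fn1a shared. The others were col15a1b (116 CPM), lama5 (76.3 CPM) and col2a1b (37.1 CPM) in homozygous cells and col18a1a (82.7 CPM) in heterozygous cells. Tailbud-like cells had 2 of 4 enriched in the homozygous library (19.5% of all genes), fn1a (113 CPM) and col11a1a (44.6 CPM). In the heterozygous library 1 of 3 was enriched (16.4%), col18a1a (79.2 CPM). No enriched gene was shared, but whether the tailbud-like sets differ was not tested. In heterozygous tailbud-like cells the collagen XI genes had 9 UMIs together, so col11a1a was under the minimum for enrichment. There fn1a was set against other cells that included the macrophage-like class, with 1327 of the 1860 fn1a UMIs of the library. RBC-like cells, with the lowest matrix level, had only fn1b in the homozygous library (1 of 3, 14.5% of all genes), and fn1b and col5a3a, a collagen V chain gene (3.95 CPM), in the heterozygous library (2 of 5, 12.9%). Macrophage-like cells of the heterozygous library had fn1a alone (1 of 5, 17%), and their next gene, col5a1, was at 17.2 CPM.

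Most paralogues and partner chains had uneven UMI counts, but some did not. The 3′ ends of these gene models were not checked, so counts of different genes cannot be read as their relative use. Over all cells col4a1 had 33 UMIs in the homozygous and 142 in the heterozygous library, against 2 and 10 of its partner col4a2. The pair col4a5 and col4a6 had 23 and 107 UMIs in homozygous and 30 and 262 in heterozygous cells. Collagen II UMIs were mainly of col2a1b, with col2a1a holding 31.7% of them in homozygous and 13.03% in heterozygous cells. Its share was 78.6% (49.2 to 95.3) in heterozygous neural-like cells, on 14 UMIs. In heterozygous epidermal-like cells all 79 collagen XI alpha 1 UMIs were of col11a1a, whereas 23 of 68 in EPC-like and 17 of 43 in endothelial-like cells were of col11a1b. Collagen XVIII UMIs were of col18a1a alone, with 194 and 397 UMIs in homozygous and heterozygous cells and none of col18a1b. The remaining chains were rare, with 10 and 37 UMIs of col1a1b and 7 and 32 of lamc1 in homozygous and heterozygous cells. The laminin beta genes lamb1a and lamb1b had 9 and 3 UMIs in homozygous cells and 30 each in heterozygous cells. The fibril-associated col12a1a and col12a1b were also close to even in LPM-like cells, with 27 and 26 UMIs in the homozygous and 24 and 19 in the heterozygous library.

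Genes that fold, cross-link, bind or cut the matrix were followed in 6 lists. The collagen chaperone gene serpinh1b was highest in heterozygous EPC-like cells (747 CPM, 4.50-fold above the other cells), and LPM-like cells had 556 CPM in the homozygous and 529 CPM in the heterozygous library. The gene list held 14 folding and hydroxylation genes, counted here where they had 10 UMIs or more in the class. Enriched were 6 of 9 in homozygous and 5 of 7 in heterozygous LPM-like cells, and 4 of 6 and 1 of 3 in cardiomyocyte-like cells. In heterozygous cells 4 of 9 were enriched in endothelial-like and 3 of 8 in EPC-like cells. Epidermal-like cells had 2 of 5 in the homozygous and 2 of 7 in the heterozygous library, and tailbud-like cells 1 of 5 and 0 of 4. None were enriched of 7 in heterozygous macrophage-like cells. None were either in the homozygous and heterozygous libraries of 4 and 5 in RBC-like, 3 and 3 in myocyte-like and 4 and 5 in neural-like cells. The share of all genes so enriched is given with each class above. Macrophage-like cells, high in fn1a, were instead high in the collagenase gene mmp13a (215 CPM, 204-fold). The laminin-binding receptor gene dag1 was highest in epidermal-like cells, at 434 CPM in homozygous and 242 CPM in heterozygous cells, and itgb4, which encodes the hemidesmosome integrin, was at 26.4 CPM in the heterozygous ones. The fibronectin receptor gene itga5 was enriched in endothelial-like (27.7 CPM, 3.48-fold) and EPC-like cells (29.3 CPM, 2.96-fold) of the heterozygous library. On 11 UMIs it also passed in homozygous LPM-like cells (10.51 CPM, 3.67-fold). Heterozygous LPM-like cells had a similar itga5 level (12.7 CPM, 10 UMIs) but only 1.05-fold. The other cells stood at 2.87 CPM in the homozygous and 12.0 CPM in the heterozygous library, so the fold was no trait of the class. Between the libraries, over all kept cells, 1 of 9 folding genes (serpinh1a), 3 of 12 receptor genes (itga2.3, itga5 and itga6b) and 3 of 8 protease and inhibitor genes (mmp13a, mmp14b and timp2b) were at least 2-fold lower in homozygous cells, where 10.1% of all genes were. All but itga2.3 were enriched in heterozygous macrophage-like (mmp13a, timp2b), endothelial-like or EPC-like cells, classes with 8 homozygous and 827 heterozygous cells. The part of class makeup in these ratios was not tested. Over the same cells 1 of 9 trafficking and processing genes (pcolce2b) and 1 of 4 cross-linking genes (loxl5b) were at least 2-fold higher, as were 5.58% of all genes, and 0 of 9 other basement membrane genes were past 2-fold in either direction. Within classes, p4ha1b and pcolce2b (LPM-like), nid2a and dag1 (cardiomyocyte-like) and serpinh1b (myocyte-like) were at least 2-fold higher in homozygous cells. At least 2-fold lower were p3h1 (LPM-like), p4hb (tailbud-like), sparc (cardiomyocyte-like), serpinh1b (RBC-like and epidermal-like) and sdc2 (RBC-like). The shares of all genes are given with each class below.

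The genotype comparison over all kept cells covered the 27 genes with at least 30 UMIs. Of these, 5 were at least 2-fold higher and 3 at least 2-fold lower in homozygous cells, where 5.58% and 10.1% of 10756 genes passed the same limits, and the median log2 ratio was 0.18 over the 27 genes and -0.02 over all genes. The higher genes were col9a3, a collagen IX chain gene (20 against 12 UMIs, ratio 4.49, 2.09 to 10.1), col2a1a (53 against 37, 3.86, 2.49 to 6.04), lama5 (79 against 77, 2.76, 1.99 to 3.83), col15a1b (159 against 199, 2.15, 1.74 to 2.67) and col4a5 (23 against 30, 2.07, 1.15 to 3.68). The lower genes were lamb1b (3 against 30 UMIs, 0.269, 0.0526 to 0.866), lama4 (10 against 72, 0.374, 0.172 to 0.729) and col11a1b (11 against 62, 0.478, 0.227 to 0.916). Some of these passed 2-fold only with a single cell included. Without the cell holding most UMIs of the gene, the ratio was 1.90 for col2a1a, 1.80 for col4a5 and 0.520 for col11a1b. For lamb1b it moved further from 1, to 0.0901. For col9a3 it was 3.60, but the gene no longer had 30 UMIs.

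The class makeup of the libraries moved with these ratios. Outside the macrophage-like, EPC-like and endothelial-like classes (465 homozygous and 781 heterozygous cells), lama4 had 9 UMIs in homozygous and 11 in heterozygous cells (ratio 1.17, 0.429 to 3.11) and lamb1b 3 and 3 (1.43, 0.192 to 10.7), too few for a direction and under the minimum of 30 UMIs. The gene col9a3, also under that minimum, had 20 UMIs in homozygous and 8 in heterozygous cells there (3.58, 1.51 to 9.39). The ratios were 0.716 for col11a1b (0.313 to 1.54) and 1.32 for col4a5 (0.714 to 2.42). The same choice turned fn1a round. It had a ratio of 0.520 (0.463 to 0.583) over all kept cells, with 57.2 CPM in homozygous and 110.0 CPM in heterozygous cells, and of 2.44 (2.03 to 2.93) outside the 3 classes, with 52.2 and 21.4 CPM. Likewise col4a1 had 0.626 over all kept cells and 2.69 (1.45 to 5.17) outside them. For col15a1b (2.47, 1.90 to 3.23), lama5 (2.19, 1.52 to 3.18) and col2a1a (2.53, 1.59 to 4.098) the ratios stayed above 2, while col14a1a (0.390) and col5a3a (0.334) came below 0.5. Cardiomyocyte-like cells, rich in fn1a, col15a1b and lama5, were 13.3% of homozygous and 1.24% of heterozygous cells. How much of each ratio followed from class shares was not tested further, so levels were compared within classes.

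Within the 7 classes that had 20 or more cells in each library, 35 gene and class pairs reached 30 UMIs, of which 5 were at least 2-fold higher and 4 at least 2-fold lower in homozygous cells. None of 3 pairs in RBC-like cells (2.32% of all genes higher and 3.81% lower) and none of 2 in neural-like cells (3.94% and 5.75%) passed. In RBC-like cells the ratios were 1.04 (0.875 to 1.25) for fn1b, 1.04 for fn1a and 0.999 for col18a1a. In LPM-like cells 1 of 12 genes was higher and 0 lower (4.16% and 2.92% of all genes), with a median log2 ratio of -0.04 over the 12 genes and -0.02 over all genes. The 11 others in LPM-like cells had ratios between 0.569 (col4a6, 0.368 to 0.874) and 1.17 (fn1a). Genotype differences of these genes were thus within 2-fold in this class, while some pairs in other classes differed more, as described below.

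**Figure D4:**
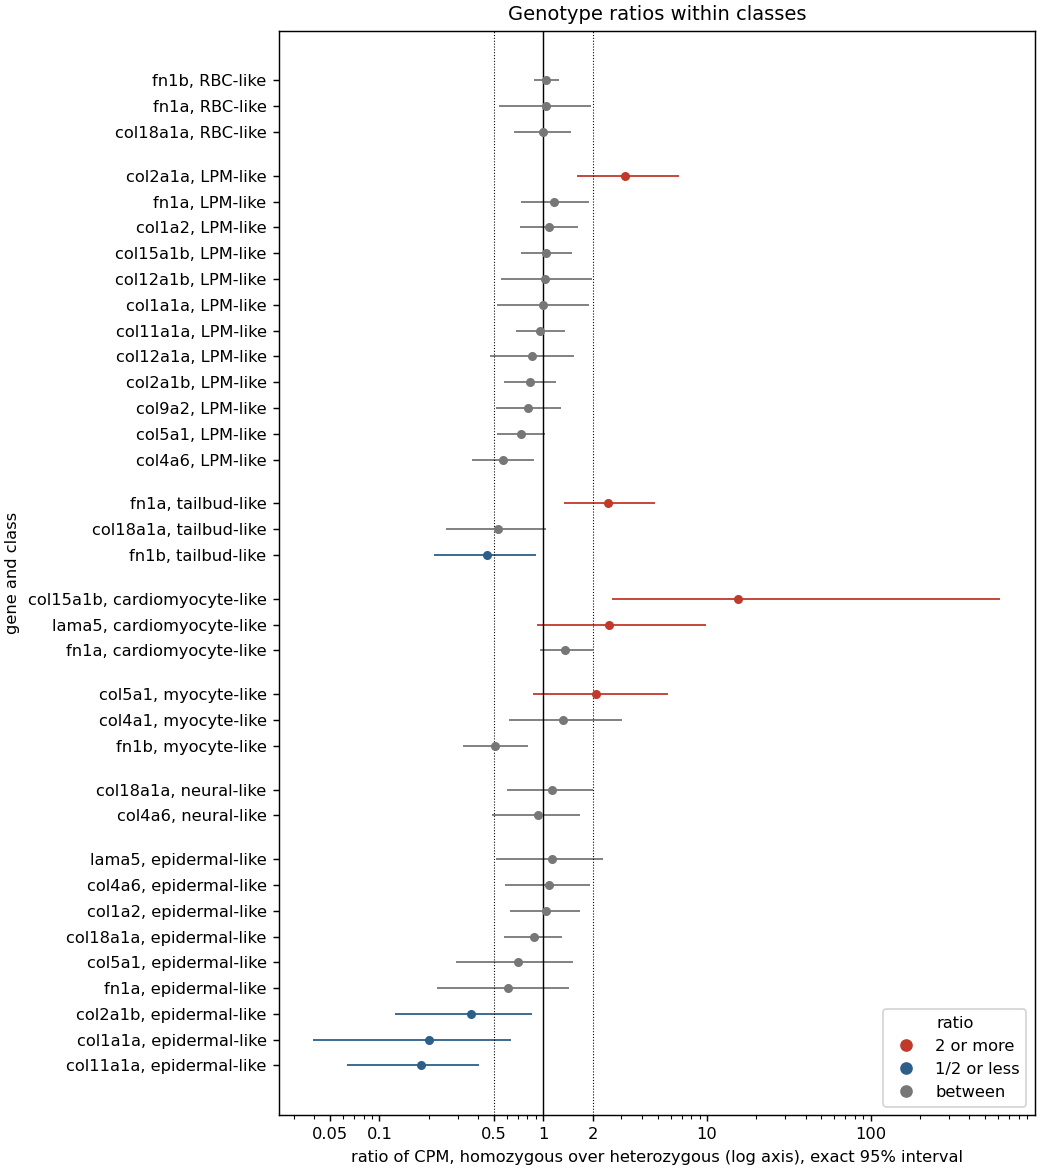
Ratio of CPM, homozygous over heterozygous, for the 35 gene and class pairs with at least 30 UMIs (log axis), with exact 95% intervals for counting error. Red points are at 2 or more, blue points at 0.5 or less (dotted lines) and grey points between. Most LPM-like pairs lie near 1, and the largest ratio is that of col15a1b in cardiomyocyte-like cells (15.4, 2.65 to 618, and 3.90 with no minimum of UMIs per barcode).

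The LPM-like gene past 2-fold was col2a1a, with 46 UMIs in homozygous and 11 in heterozygous cells (43.96 and 13.95 CPM, ratio 3.15, 1.61 to 6.75). It rested on very few cells. Only 5 cells of the class in each library had a col2a1a UMI, and 1 homozygous cell held 27 of the 46 and another held 16. Without the cell with 27 the ratio was 1.31, and the cell with 16 was still counted in it. The cell with 27 (9128 UMIs in all) also held 9 UMIs of col9a1b, 7 of col11a1a, 5 of lama5 and 4 of col9a3. It held 6 of the floor plate and notochord ligand gene shha, the only shha UMIs of the class, and 19 of ntd5, which was found in 48 cells of the class. Of the LPM markers it held only id3, at 4 UMIs. The other notochord and floor plate markers, noto, shhb, foxa2 and epyc, had no UMI in it. It also held 11 UMIs of 1 endothelial marker and 6 UMIs of 2 tailbud markers. The type of this cell was not tested.

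In cardiomyocyte-like cells 2 of 3 genes were higher in homozygous cells and 0 lower (12.0% and 5.9% of all genes), and the summed level of the 72 genes was 825 CPM in homozygous and 549 CPM in heterozygous cells (ratio 1.503, 1.17 to 1.96). The basement membrane collagen gene col15a1b had 56 UMIs in 22 of 63 homozygous cells and 1 UMI in 1 of 20 heterozygous cells (116 and 7.52 CPM, ratio 15.4, 2.65 to 618). Here no single cell decided the value, as the highest held 6 UMIs, but the single heterozygous UMI left its size poorly set, and with no minimum of UMIs per barcode the ratio was 3.90. The laminin gene lama5 had 37 UMIs in 21 homozygous cells and 4 UMIs in 4 heterozygous cells (76.3 and 30.1 CPM, ratio 2.54, 0.912 to 9.80), an interval that includes 1. The ratio of fn1a was 1.36 (0.949 to 2.01), so its level was not distinguishable between the libraries at this depth.

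The markers of this class moved with the same comparison. The summed level of the 12 cardiomyocyte markers, all found in both libraries, was 5607 CPM in homozygous and 3849 CPM in heterozygous cells, with the myosin gene myl7 at 728 and 256 CPM and the heart field gene hand2 at 456 and 1248 CPM. Within the homozygous library the 22 cells with a col15a1b UMI had 8873 CPM of these markers and a median depth of 9895 UMIs, and the 41 cells without had 3368 CPM and 5700 UMIs. The part of marker level and depth in the col15a1b difference was not tested.

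In tailbud-like cells fn1a was higher and fn1b lower in homozygous cells, 1 of 3 genes in each direction (3.21% and 4.32% of all genes). The gene fn1a had 38 UMIs in 15 of 26 homozygous cells and 15 UMIs in 9 of 34 heterozygous cells (113 and 45.7 CPM, ratio 2.47, 1.33 to 4.84). The gene fn1b had 13 and 28 UMIs (38.7 and 85.3 CPM, ratio 0.454, 0.216 to 0.905), of which single cells held 9 and 12, and the ratio without the highest cell was 0.759. The fn1a share of fibronectin UMIs was 74.5% (60.4 to 85.7) in homozygous and 34.9% (21.0 to 50.9) in heterozygous cells. The cardiomyocyte marker list summed to 708 CPM in homozygous tailbud-like cells (6 of 12 found) and 463 CPM in heterozygous ones (4 of 12), and the homozygous cell with most fn1a (7 UMIs) held 47 UMIs of these markers. Other lists differed more. EPC markers summed to 1987 CPM in homozygous and 6529 CPM in heterozygous tailbud-like cells (7 of 8 found in both), LPM markers to 1734 and 917 CPM (12 and 11 of 12), and notochord and floor plate markers to 190 and 6.09 CPM (4 and 1 of 6). The tailbud markers themselves summed to 2106 and 2156 CPM. The part of these markers in the fn1a and fn1b differences was not tested.

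In myocyte-like cells 1 of 3 genes was higher and 0 lower (6.23% and 3.67% of all genes). It was col5a1, with 23 UMIs in homozygous and 7 in heterozygous cells (82.1 and 39.4 CPM, ratio 2.09, 0.866 to 5.75), an interval that includes 1, and 1.83 without the highest cell. The fn1b ratio was 0.5105 (0.322 to 0.804). Some muscle markers differed more between the libraries and others less. The muscle actin gene actc1b had 1246 CPM in homozygous and 292 CPM in heterozygous cells and the myogenic factor gene myog 1274 and 321 CPM, whereas the earlier myogenic factor genes myod1 and myf5 had 657 and 161 CPM in homozygous and 708.5 and 219 CPM in heterozygous cells, and tcf15 had 774 and 900 CPM. The part of these markers in the ratios was not tested.

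In epidermal-like cells 0 of 9 genes were higher and 3 lower in homozygous cells (4.23% and 11.3% of all genes), with a median log2 ratio of -0.51 over the 9 genes and -0.10 over all genes. The 3 were fibrillar collagens: col11a1a (6 against 79 UMIs, 31.0 and 174 CPM, ratio 0.178, 0.0634 to 0.405), col1a1a (3 against 35 UMIs, 0.201, 0.0395 to 0.637) and col2a1b (6 against 39 UMIs, 0.361, 0.125 to 0.858). They shared their highest cells. In the heterozygous library 1 cell held 12 UMIs of col11a1a, 11 of col2a1b and 7 of col1a1a, and another held 14 of col11a1a and 7 of col1a1a. The basement membrane genes col18a1a (0.873, 0.574 to 1.299), col4a6 (1.08, 0.583 to 1.94) and lama5 (1.13, 0.515 to 2.32) had intervals that include 1, as did the fibrillar col1a2 (1.03, 0.625 to 1.67) and col5a1 (0.703, 0.294 to 1.52) and the fibronectin gene fn1a (0.608, 0.223 to 1.43). Keratin genes were lower too, with krt4 at 1002 CPM in homozygous and 3532 CPM in heterozygous cells and cyt1 at 542 and 3102 CPM, while the adhesion gene cdh1 had 289 and 141 CPM. The part of this difference in cell makeup was not tested. Hatching gland markers, at 0 in homozygous and 4371 CPM in heterozygous epidermal-like cells, came almost wholly from 1 cell, and without it the ratios of col11a1a, col1a1a and col2a1b were 0.170, 0.192 and 0.345.

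**Figure D5:**
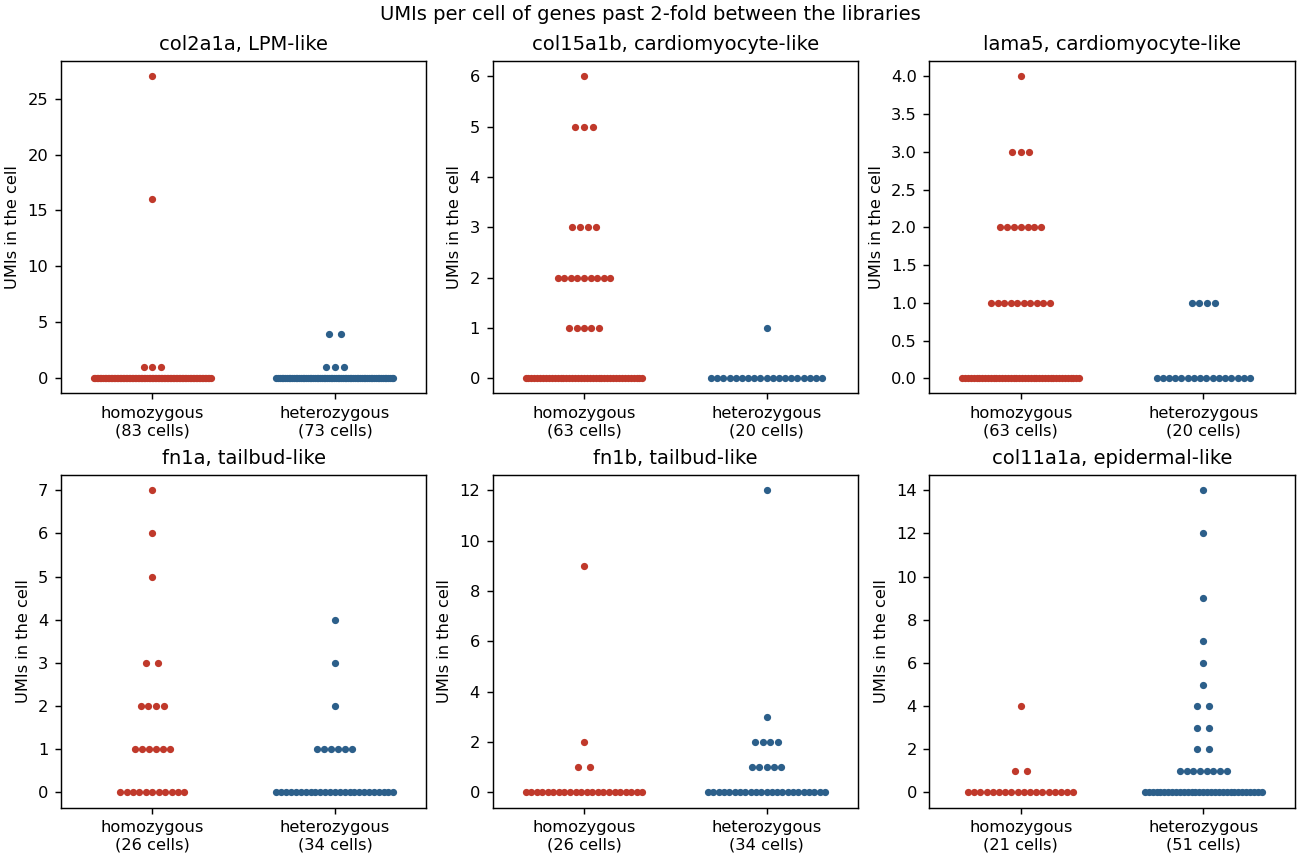
UMIs in each cell (points) for 6 gene and class pairs past 2-fold between the libraries, homozygous cells (red) left of heterozygous cells (blue). Single homozygous cells with 27 and 16 UMIs carry most of the homozygous col2a1a in LPM-like cells. The gene col15a1b in cardiomyocyte-like cells is spread over 22 homozygous cells. In epidermal-like cells col11a1a is found in 20 heterozygous cells, with up to 14 UMIs in a cell.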

How the data were processed

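The authors deposited 1 matrix of UMI counts per library, made with Cell Ranger on genome build GRCz10 (version 2.0.2 per the labels' processing notes). These whole-number counts were not normalized and held all barcodes. The annotation release is not given in the sources used here. Total counts were 7244035 UMIs in the homozygous and 19256969 UMIs in the heterozygous library. Barcodes were filtered as stated in the results, and 16204 genes found in at least 3 cells were clustered with Seurat 5.3.0 (R 4.3.3) after the study's outline (log normalization, regression of depth and mitochondrial share, principal components, SLM), with the 72 genes left out and a finer resolution than the study's, which gave 16 clusters. Of these, 14 were named from marker lists, and clusters 1 and 2 (109 homozygous and 263 heterozygous cells), with p53 pathway genes among their leading genes, stayed unnamed, so classes are rebuilt and may differ from the study's. Scrublet in scanpy 1.11.5 marked 1 homozygous and 5 heterozygous cells as doublets, which were kept. Such low numbers leave doublets largely unassessed.

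Counts were summed per library and class with numpy 2.4.6 and scipy 1.17.1. Intervals are exact Poisson for CPM, exact conditional for ratios and Clopper-Pearson for shares. A count of 0 was set to 3 counts in ratios. Ratios between libraries needed 30 UMIs, enrichment 10 UMIs in the class, and 2-fold was the threshold for both. In a class with few UMIs the minimum of 10 itself favours genes that are high there, and the share over all genes does not correct for this. No p-values were computed. Free RNA, estimated from 14 hemoglobin genes, was 2.06% of UMIs in homozygous and 4.24% in heterozygous cells. For shares of cells, 76 homozygous and 319 heterozygous cells under 5000 UMIs were left out on thinning. The ratio calculation was tested on simulated data. Named genes were, by rule, the 5 leading members of each class, members past 2-fold, and the main collagen, laminin and fibronectin chains with 30 UMIs. Members and lists were chosen with earlier results of these data known. The split of cluster 6 by endocardial markers, restricting the comparison to cells outside 3 classes, leaving out the hatching gland cell, and adding genes by reference name were chosen after seeing the data.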

Additional observations from a re-analysis of the deposited data

Results flagged for a closer look

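Matrix gene UMIs were also found outside the kept cells, in barcodes with 1 to 100 UMIs, which are mostly empty droplets. There were 230 such UMIs in the homozygous library (335 CPM of the empty-droplet total) and 277 in the heterozygous library (216 CPM), against 365 and 364 CPM in the kept cells. The main comparisons of classes and genotypes left these droplets out. Their profile served only to estimate free RNA and to subtract it in a check of the processing.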

How the results depend on the processing

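The ratio of summed matrix gene UMIs (1.003) was 1.20 as a mean of single-cell CPM and 1.17 outside the macrophage-like, EPC-like and endothelial-like classes, and lay between 0.972 and 1.02 under the other settings. The number of genes past 2-fold over all cells, 8 as reported, was 5 without the cell with most UMIs of the gene. These 5 include a gene outside the 8, since col11a1b, col2a1a, col4a5 and col9a3 dropped out. The number was 2 at a minimum of 100 UMIs and 16 at a minimum of 10 UMIs. The 9 gene and class pairs past 2-fold became 0 when the libraries were clustered apart, where only RBC-like, LPM-like and neural-like cells could be compared, 0 at a minimum of 100 UMIs and 23 at 10 UMIs. The 53 enriched pairs of the heterozygous library became 28 at 30 UMIs and 87 at 3 UMIs in the class. Outside the 3 classes, the ratios of lama4 (1.17) and lamb1b (1.43) lay on the other side of 1, on 9 against 11 and 3 against 3 UMIs, with intervals that include 1. With no minimum of UMIs per barcode, col15a1b in cardiomyocyte-like cells came to 3.90, col2a1a in LPM-like cells came to 1.06 and fn1b in tailbud-like cells to 0.657, and as a mean of single-cell CPM lama5 in cardiomyocyte-like cells came to 1.89. No paired analysis was possible because each genotype had 1 library. Depth limits most classes to 2 or 3 genes that can be compared.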

Other observations

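Beyond the named classes, the unnamed cluster 2, with the p53 pathway genes pmaip1 and mdm2 among its leading genes, had a fibronectin pattern close in value to that of RBC-like cells, with fn1a at 15.8% (20 of 127) of fibronectin UMIs in homozygous and 11.0% (29 of 263) in heterozygous cells.

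Laminin trimers need 1 chain of each kind, yet alpha chain genes had 100 UMIs in homozygous and 158 in heterozygous cells, beta chain genes 15 and 77, and gamma chain genes 11 and 35. Collagen I chains join as 2 alpha 1 and 1 alpha 2 chain, and col1a2 had 122 and 334 UMIs against 57 and 91 of col1a1a in homozygous and heterozygous cells. The 3′ ends of these gene models were not checked.

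The collagen IX gene col9a1b had 11 UMIs in 3 homozygous cells, 9 of them in the cell with most col2a1a, and none in the heterozygous library.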
